A study of Mus musculus with 4 samples.

Results

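Subcutaneous adipose tissue (SAT) of wild-type (WT) mice was compared between a high fat diet (HFD) and a control diet (CT) on Affymetrix MoGene 1.0 ST arrays. The comparison uses 2 of the 4 arrays of the series, the array labelled WT on HFD minus the array labelled WT on CT, and it was read over all 19938 genes that had at least 1 probe set naming that gene alone. WT mice were male C57Bl6 littermates of genotype NAPE PLD lox/lox, that is, with a loxP-flanked *Napepld* and no Cre recombinase, so both arrays carry the floxed allele. They received AIN93M (CT) or D12492 (HFD) for 8 weeks from 8 weeks of age, were 16 weeks old at the end and were fasted for 6 h. The diets are different formulas, so the fat content cannot be told apart from the other ingredients. The RNA of each group was pooled before labelling, from 5 mice according to the methods and from 4 to 5 mice chosen on RNA quality according to the labels, and each group was 1 array. The other 2 arrays, read beside them, are labelled cKO and are of mice bred to delete *Napepld* where AP2 (*Fabp4*) Cre is active, chiefly in adipocytes, on the same diets. The cKO-HFD over cKO-CT pair shares no array with the WT pair.

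White fat cells store triglyceride, which they take up from the blood or make from glucose through citrate, acetyl-CoA and malonyl-CoA. Insulin and dietary carbohydrate raise the enzymes of that synthesis, and dietary fat lowers them. Subcutaneous fat also holds beige adipocytes, which burn fuel through the uncoupling protein UCP1, and a stroma of progenitors, vessels, macrophages and matrix that is remodelled as the depot grows. In bulk tissue, fewer cells of a type and less RNA per cell cannot be told apart.

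With 1 array per group there is no replicate spread, no test and no p-value, and the number of arrays limits the precision. All levels below are log2 RMA values, and a ratio is the difference of log2 levels, WT-HFD minus WT-CT unless the cKO pair is named. A gene rose or fell where the ratio passed 1.5-fold (0.585 on the log2 scale), the size used in the study. The 1027 olfactory receptor (*Olfr*) genes, which are mostly silent outside the nose, gave a background: 95% of them lay below 5.39 on WT-CT, 5.42 on WT-HFD, 5.28 on cKO-CT and 5.50 on cKO-HFD. Of these, 28 rose and 16 fell in the WT pair, and 50 and 6 in the cKO pair. The tissue label was borne out by the adipocyte markers, since all 18 measured lay above that background. *Adipoq*, the adiponectin gene, stood at 12.44 on WT-CT and 12.59 on WT-HFD, the lipid droplet coat gene *Plin1* at 12.16 and 12.08, and the fatty acid binding protein gene *Fabp4* at 13.09 and 13.04. *Napepld* stood at 8.31 and 8.01, a ratio of -0.31. On the arrays labelled cKO it stood at 7.78 on CT and 7.94 on HFD, so on HFD its level hardly set the array labelled cKO apart from the WT array. Whether its probes lie in the deleted part was not examined, and the tissue holds cells without the Cre.

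In WT mice on HFD, 631 genes rose (3.16% of 19938) and 532 fell (2.67%), 1163 in all (5.83%). The 6 genes that fell by 8-fold or more made fatty acids or marked beige fat. Of the 631 genes that rose, 65 belonged to a list of skeletal muscle genes, 47 to lists of matrix and vessel genes and 41 to immune lists, and 385 to no list. The falls were deeper than the rises, with 27 genes falling and 12 rising by 4-fold or more. By 8-fold or more 6 genes fell and 1 rose, and the latter, the ribonuclease gene *Rnase2a*, lay below background on WT-CT (3.89, against 6.97 on WT-HFD). The median ratio of all genes was -0.004, with 5% of genes below -0.46 and 5% above 0.48. The share called grew with the level. Below a mean level of 4, 1.29% of genes rose and 1.37% fell, and at 10 or more 12.3% rose and 11.3% fell. Among the 12150 genes above background on either WT array, 549 rose and 438 fell.

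**Figure D1:**
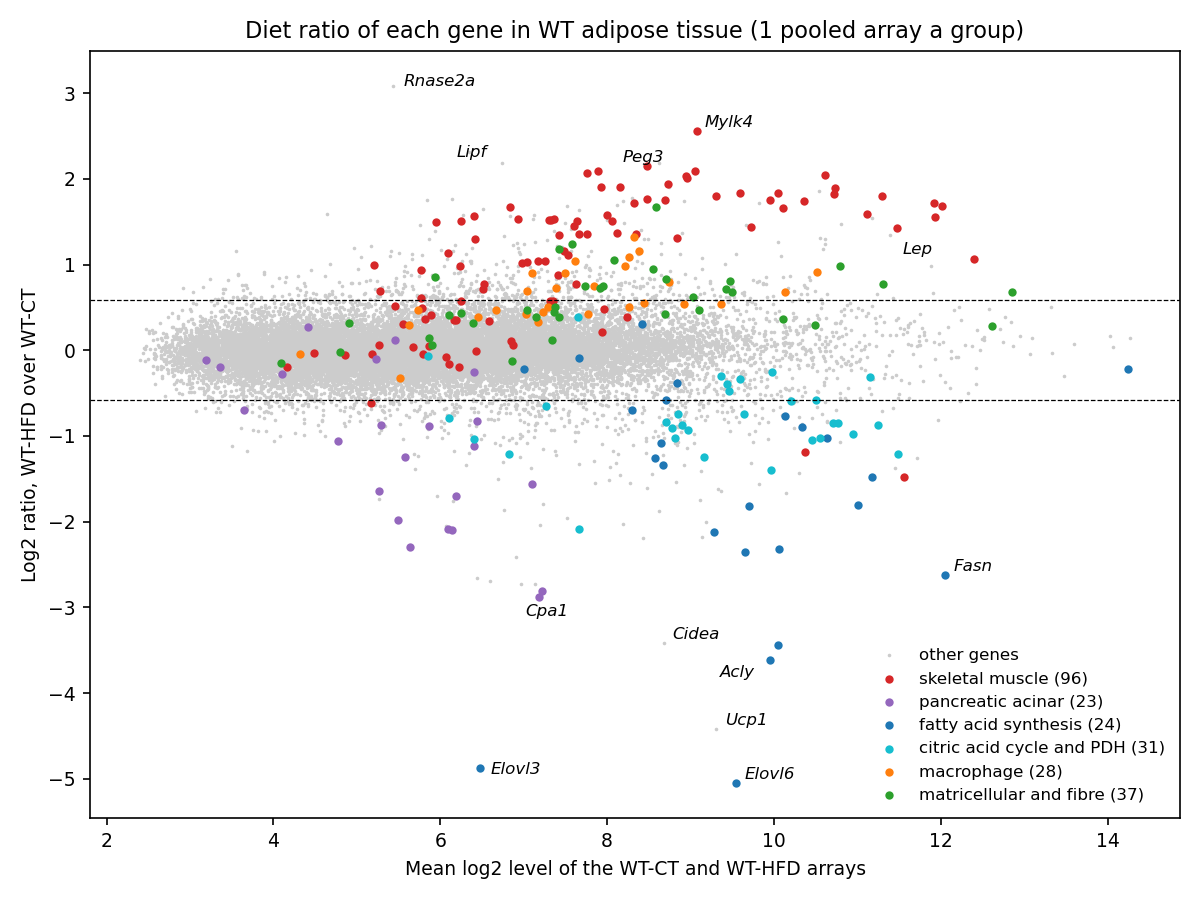
Log2 ratio of WT-HFD over WT-CT (vertical axis) against the mean log2 level of the 2 arrays (horizontal axis), 1 point per gene, with 6 gene lists in colour and dashed lines at 1.5-fold. Muscle genes (red) lie mostly above the upper line at a median of 1.23, the fatty acid synthesis genes (dark blue) below the lower one at a median of -1.29, and *Elovl6* is lowest at -5.05.

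Skeletal muscle genes are set apart because they made up 65 of the 631 genes that rose while the muscle list holds 96 of the genes measured. Of those 96, 65 rose and 3 fell, and their median ratio was 1.23 against -0.004 over all genes. In the cKO pair 53 fell and 1 rose, with a median of -0.82. The creatine kinase gene *Ckm* stood at 11.05 on WT-CT, 12.78 on WT-HFD, 11.29 on cKO-CT and 8.62 on cKO-HFD. The fast myosin heavy chain gene *Myh4* stood at 10.40, 12.20, 10.64 and 7.73 in that order. Both peaked on WT-HFD, had their minimum on cKO-HFD, and were close to each other on the CT arrays. The myosin light chain kinase gene *Mylk4* had the largest muscle ratio, 2.56, from 7.79 to 10.35, and it stood at 8.42 on cKO-CT and below background at 5.32 on cKO-HFD. It was followed by the AMP deaminase gene *Ampd1* (2.15), *Xirp2* (2.10), the calcium release channel gene *Ryr1* (2.09), *Klhl31* (2.07) and the muscle glycogen phosphorylase gene *Pygm* (2.04). Among genes of slow fibres, the myosin gene *Myh7* had a ratio of -0.01, the slow troponin gene *Tnnc1* of -0.04, *Myoz2* of -0.06 and sarcolipin, *Sln*, of -0.03, although *Myoz2* and *Sln* lay below background. The 3 muscle genes that fell were *Cox8b* (-1.48) and *Cox7a1* (-1.18), cytochrome oxidase subunits of muscle and of brown fat, which also fell in the cKO pair (-1.08 and -1.89), and *Myl2* (-0.61), the regulatory light chain gene of slow fibres, below background on WT-HFD. Of the 96, 86 lay above background on WT-CT, 90 on WT-HFD, 84 on cKO-CT and 59 on cKO-HFD. Their summed linear signal was 36330, 87771, 32984 and 10987. The part of muscle RNA in the other ratios of genes that muscle uses was not tested.

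Without the muscle list, 566 genes rose and 529 fell. Some of the 566 still moved as the muscle list did. In the cKO pair 43 of them fell and 53 rose, while 1.82% of all genes rose and 2.17% fell in that pair (3.98% either way). Among the 20 genes outside the list with the largest rise and a level of at least 7 on the higher array, 9 fell in the cKO pair. These were the tropomyosin genes *Tpm1* (1.86, against -1.45 in the cKO pair) and *Tpm2* (1.72 and -1.32), *Hjv* (1.75 and -1.73), the hemojuvelin gene of muscle and liver, and the adenylate kinase gene *Ak1* (1.74 and -1.11). The others were *A930016O22Rik* (1.78 and -0.86), *Lrrc2* (1.77 and -0.61), *BC023105* (1.65 and -1.11), the lipid droplet gene *Fitm1* (1.57 and -0.81) and the sarcomere gene *Mypn* (1.54 and -1.45). *Prkag3*, an AMPK subunit gene known from muscle, rose by 1.64 and had 0.44 in the cKO pair. Leaving out the muscle list and every gene called in opposite directions in the cKO pair, a choice made after seeing the data, left 523 genes that rose and 521 that fell.

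A second list of another tissue went the other way. Of 23 pancreatic acinar genes, which encode digestive enzymes, 16 fell and none rose, with a median of -1.06, while in the cKO pair 2 rose and none fell (median 0.13). The chymotrypsinogen gene *Ctrb1* stood at 8.62 on WT-CT and at 5.75, 5.39 and 5.55 on WT-HFD, cKO-CT and cKO-HFD. The carboxypeptidase gene *Cpa1* stood at 8.62 on WT-CT and at 5.81, 5.21 and 5.43 on the others. WT-CT alone was high for both. Above background lay 16 of the 23 on WT-CT, 7 on WT-HFD, 7 on cKO-CT and 6 on cKO-HFD. Most of the falls therefore end near background and their sizes cannot be read, and the summed linear signal was 2445, 837, 728 and 831. Without the muscle and acinar lists 566 genes rose and 513 fell, a count made after seeing the data. Of 16 keratinocyte and 15 mammary epithelial genes none passed 1.5-fold, but only 7 and 5 of these lay above background on either WT array, so most could not show a change. Of 20 liver genes, 8 of them above background, *Fabp1*, below background, rose and *Alb* fell, from 10.18 to 8.54 (-1.64), with -2.03 in the cKO pair.

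Of the 532 genes that fell, 148 (27.8%) belonged to the lists of fat, sugar and mitochondrial metabolism, which hold 427 of the genes measured. Only 9 of the 427 rose. In the cKO pair, 115 of the 529 that fell outside the muscle list also fell (21.7%, or 30.3% of the 379 that fell in the cKO pair) and 8 rose, and 77.1% had a ratio below 0, against 46.8% of all genes. Of the 566 that rose, 53 also rose there (9.36%, or 14.7% of 361), and 55.7% had a ratio above 0, against 53.1% of all genes. Above background the shares of the cKO calls came close to each other, while those of the WT calls did not. A WT rise could pass that filter through its WT-HFD level alone, and a WT fall through its WT-CT level alone. Above background on either WT array, 46 of 484 rises were shared (9.5%, or 31.7% of the 145 in the cKO pair) and 108 of 435 falls (24.8%, or 32.7% of 330). There 53.3% of the rises had a cKO ratio above 0, against 43.1% of genes, and 84.8% of the falls one below 0, against 56.8%. Among the 20 genes that fell most, 17 fell in the cKO pair and the other 3, *Ctrb1*, *Cpa1* and *Rnase1*, were acinar genes. Across the genes outside the muscle list, which are not independent replicates, the ratios of both pairs correlated with r = 0.20.

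**Figure D2:**
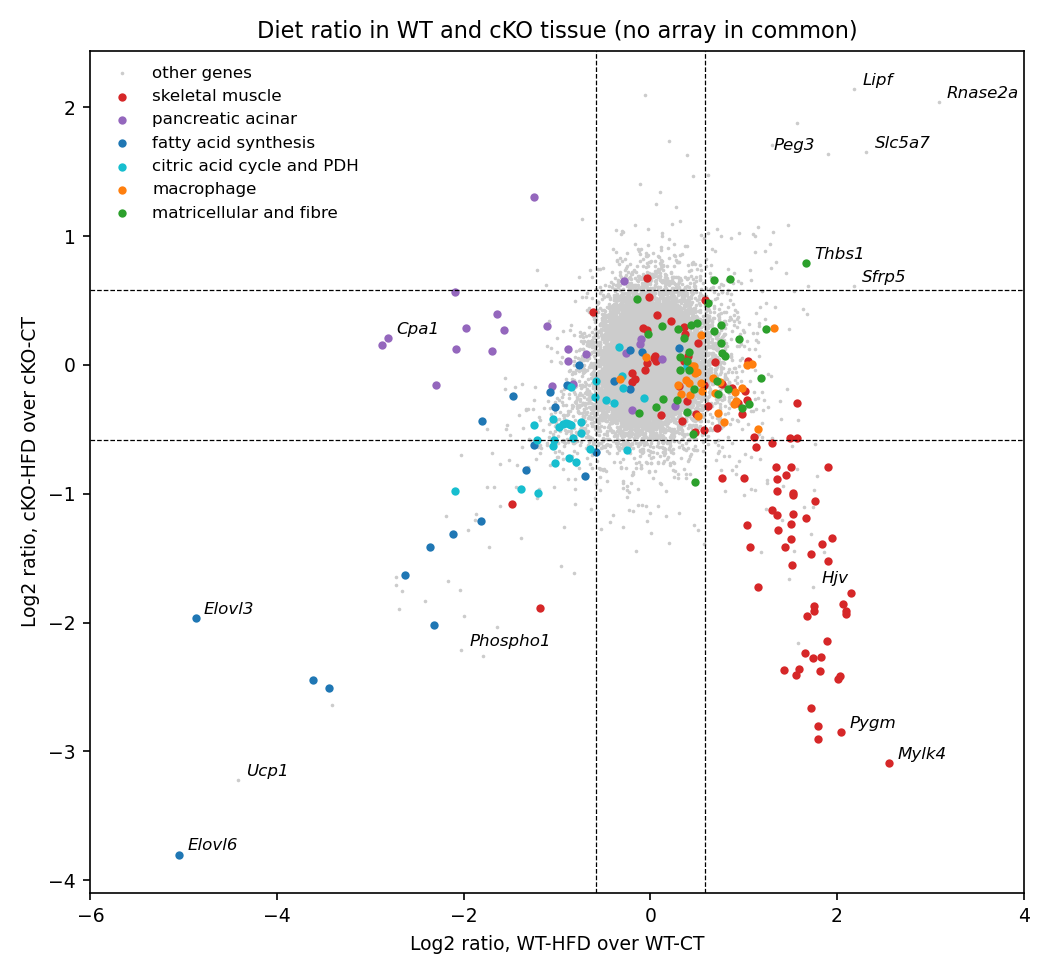
Log2 ratio of cKO-HFD over cKO-CT (vertical axis) against that of WT-HFD over WT-CT (horizontal axis), 1 point per gene and 1 array per group, with dashed lines at 1.5-fold. The fatty acid synthesis genes lie along the lower left, muscle genes at the lower right with *Mylk4* at 2.56 and -3.09, and acinar genes such as *Cpa1* far to the left and near 0 on the vertical axis.

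The synthesis of fatty acids gave the deepest falls. Of 24 genes, 19 fell and none rose, and 13 of these also fell in the cKO pair. *Elovl6*, which lengthens palmitate to stearate, stood at 12.07 on WT-CT and 7.02 on WT-HFD, which is 33.1-fold lower, and at 11.27 and 7.46 on cKO-CT and cKO-HFD. *Acly*, which splits citrate into acetyl-CoA, went from 11.76 to 8.15 (12.3-fold lower), and *Acaca*, which makes malonyl-CoA from it, from 11.76 to 8.33 (10.8-fold lower). *Fasn*, the fatty acid synthase, was among the most abundant at 13.36 on WT-CT and fell to 10.74, 6.17-fold lower. These 4 genes were high on both CT arrays and low on both HFD arrays. The pathway fell at its entry as well: the citrate carrier gene *Slc25a1* (-1.47), the acetyl-CoA synthetase gene *Acss2* (-2.12) and the pentose phosphate gene *Tkt* (-2.36) all passed 1.5-fold. So did the mitochondrial carboxylase gene *Acacb* (-1.82). The desaturase gene *Scd1*, the brightest of the list, went from 14.35 to 14.13 and did not pass (-0.22). Of the regulators, *Thrsp* fell by 2.32, *Mlxipl*, which encodes the carbohydrate sensor ChREBP, by 1.34, and *Srebf1*, the gene of the sterol and lipid regulator SREBP1, lay at the threshold (-0.59) and did not pass it once the arrays were centred on the median of all genes.

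Bases before the start site are shown for *Elovl6* and *Ucp1*, which fell most among the genes found in the promoter table used here, and for *Fasn*, a lipogenic gene with several matches that was added after its values were seen. They are 250 bases each from RefSeq on build GRCm38.p6, with *Elovl6* at chr3:129532136-129532385, plus strand, *Ucp1* at chr8:83290098-83290347, plus strand and *Fasn* at chr11:120824548-120824797, minus strand. Capitals mark matches on either strand to CCAAT, which NF-Y reads, to the E-box letters CACGTG, to the TATA-box letters TATAAA, and to GGGCGG, the letters of a GC box, and in *Fasn* a pair of CCAAT matches on opposite strands overlap.
Elovl6: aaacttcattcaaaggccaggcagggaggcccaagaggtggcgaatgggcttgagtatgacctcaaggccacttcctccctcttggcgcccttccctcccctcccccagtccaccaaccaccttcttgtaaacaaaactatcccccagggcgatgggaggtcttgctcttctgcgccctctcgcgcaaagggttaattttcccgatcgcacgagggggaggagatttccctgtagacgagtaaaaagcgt
Ucp1: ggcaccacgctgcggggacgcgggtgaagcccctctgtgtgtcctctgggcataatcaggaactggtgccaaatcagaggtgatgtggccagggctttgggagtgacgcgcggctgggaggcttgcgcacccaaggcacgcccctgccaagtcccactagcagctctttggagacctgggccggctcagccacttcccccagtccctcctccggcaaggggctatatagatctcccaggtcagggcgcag
Fasn: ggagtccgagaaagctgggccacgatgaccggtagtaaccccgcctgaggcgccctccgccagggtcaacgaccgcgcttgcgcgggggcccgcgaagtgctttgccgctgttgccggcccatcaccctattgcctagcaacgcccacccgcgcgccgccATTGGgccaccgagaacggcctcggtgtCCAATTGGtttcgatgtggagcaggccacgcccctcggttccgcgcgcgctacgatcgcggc
*Fasn* held 3 CCAAT matches, and neither of the other two held any of these letters. CCAAT stood in 11 of the 20 fatty acid synthesis genes with an entry (55%) and in 16 of 20 sterol genes (80%), against 34.5% of all 27025 promoters of this length and 35.5% of the 15614 genes measured that had an entry. GGGCGG stood in 55% and 80% of these lists and in 46% of the genes measured. Over all genes that fell outside the muscle list CCAAT was found in 37.3% and over those that rose in 33.5%. These matches are a description of the letters and not of binding.

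Triglyceride assembly fell less. Of 17 genes 7 fell, none rose, and the median was -0.47. *Agpat2*, which acylates lysophosphatidate, went from 12.14 to 10.76 (-1.38), and the glycerol phosphate dehydrogenase gene *Gpd1* from 12.34 to 11.09 (-1.26). In the cKO pair these had -0.15 and -0.34. None of the 16 genes of lipolysis passed 1.5-fold (median -0.14), and the lipase genes *Pnpla2* and *Lipe* both had a ratio of -0.08. Fatty acid uptake was mixed, with *Slc27a2* (-2.69, below background on WT-HFD), *Acsl5* (-1.33), *Fabp3* and *Fabp5* (both -0.81) lower, *Angptl4*, an inhibitor of lipoprotein lipase, higher (0.68), and *Cd36* (0.12) and *Lpl* (0.00) within 1.5-fold. Of 25 genes of cholesterol synthesis and its control 7 fell and none rose. *Insig1*, which holds back SREBP, went from 10.60 to 9.04 (-1.56) and *Idi1* had -1.25, with -0.19 and -0.27 in the cKO pair. The WT median was -0.24 and the cKO median 0.06. *Fdft1*, which makes squalene, was the 1 member that fell in the cKO pair (-0.65 in WT and -0.77 in cKO) and *Hmgcs1*, which makes the precursor HMG-CoA, the 1 that rose (0.22 and 0.72).

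Mitochondrial fuel use fell broadly and by smaller steps. Of 31 genes of the citric acid cycle and pyruvate dehydrogenase 22 fell and none rose (median -0.85, and -0.47 in the cKO pair). *Pdhb*, the beta subunit of pyruvate dehydrogenase, went from 8.71 to 6.62 and the alpha subunit gene *Pdha1* from 10.65 to 9.26. The third member of that enzyme, *Dlat*, had -1.25, the mitochondrial pyruvate carrier gene *Mpc1* -1.22 and citrate synthase, *Cs*, -0.85. Of the kinases that switch the enzyme off, *Pdk1* fell by 1.20 and *Pdk4* by 0.88, while *Pdk2* (-0.25) and *Pdk3* (-0.07) did not pass. Of the phosphatases that switch it on, *Pdp2* fell by 0.79 and *Pdp1* had 0.39. Of 25 genes of fatty acid oxidation 14 fell and 1 rose (median -0.71). *Ppara*, the receptor that drives this pathway, fell most, from 8.50 to 6.55 (-1.95, and -1.28 in the cKO pair). The trifunctional protein genes *Hadhb* (-1.67) and *Hadha* (-1.43) and the dehydrogenase gene *Acadvl* (-1.44) followed, each also lower in the cKO pair (-0.95, -0.78 and -0.95). *Cpt1a*, which admits fatty acids to mitochondria, was the member that rose (0.69).

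Of 68 genes of the respiratory chain and ATP synthase 34 fell and 1 rose, with a median of -0.58, and 63 had a ratio below 0. In the cKO pair 6 fell (median -0.27). *Ndufs1* (-1.11), *Ndufs5* (-1.06) and *Ndufb8* (-0.97) of complex I and *Uqcr10* (-0.95) of complex III fell most, and *Atp5g1*, an ATP synthase subunit gene, rose (0.70). Of 77 mitochondrial ribosomal protein genes 9 fell and none rose (median -0.23). The breakdown of branched-chain amino acids had 5 of 23 genes lower, among them *Hibch* (-0.89) and *Pccb* (-0.84), and the aminotransferase gene *Bcat1* higher (0.62). Cytosolic machinery stayed closer to 0: among 46 proteasome subunit genes none passed 1.5-fold (median -0.17), and of 61 cytosolic ribosomal protein genes *Rpl3l*, a muscle paralog, alone rose (1.13).

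The brown and beige list had 16 of 27 genes lower and none higher (median -0.87, and -0.28 in the cKO pair, where 12 fell). *Ucp1* stood at 11.52 on WT-CT, 7.10 on WT-HFD, 9.96 on cKO-CT and 6.74 on cKO-HFD, that is 21.4-fold lower in the WT pair. *Cidea*, a lipid droplet protein gene of brown fat, stood at 10.38, 6.97, 9.63 and 6.99. *Elovl3*, an elongase gene induced in beige fat, stood at 8.91 on WT-CT and below background at 4.04 on WT-HFD. For these genes the CT arrays lay above the HFD arrays in both genotypes, and WT-CT was highest. *Letmd1* (-1.75), the proton channel gene *Otop1* (-1.45), *Kcnk3* (-0.87) and the coactivator gene *Ppargc1a* (-0.99) also fell. The thioesterase gene *Acot11* went from 8.33 to 5.60 and *Mpzl2* from 7.77 to 5.11, below background. *Prdm16*, which keeps brown fat identity, stood at 6.61 and 6.69 (0.07). Of these 27 genes, 2 are on the muscle list as well, *Cox8b* and *Cox7a1*.

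Sugar metabolism was split. Of 24 genes of glycolysis and glycogen 8 fell and 2 rose. *Gbe1* (-1.61) and *Gys2* (-1.55), which build glycogen, *Pfkl* (-1.54), the liver type of phosphofructokinase, *Ldhb* (-1.29) and the hexokinase gene *Hk2* (-0.95) fell. *Pfkm*, the muscle type of phosphofructokinase, rose from 8.21 to 9.58 and went from 8.11 to 6.81 in the cKO pair, the side of the muscle list on all 4 arrays. The lactate exporter gene *Slc16a3* had 0.63. The glucose transporter gene *Slc2a4* fell by 0.69 and the fructose transporter gene *Slc2a5* by 2.04, to below background. *Pank1*, which starts coenzyme A synthesis, went from 8.49 to 5.77, and *Hsd11b1*, which regenerates active glucocorticoid inside cells, from 10.23 to 8.06 (4.51-fold lower), with 9.70 and 8.02 on the cKO arrays. The medium-chain acyl-CoA synthetase gene *Acsm3* had -2.41 and *Parm1* -2.19. Outside the rule for named genes, and chosen after their values were seen, the mitochondrial glycerol phosphate dehydrogenase gene *Gpd2* (-2.00 in WT and -1.95 in cKO), *Phospho1* (-2.03 and -2.21) and the liver type glycogen phosphorylase gene *Pygl* (-1.88 and -1.20) fell in both pairs.

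**Figure D3:**
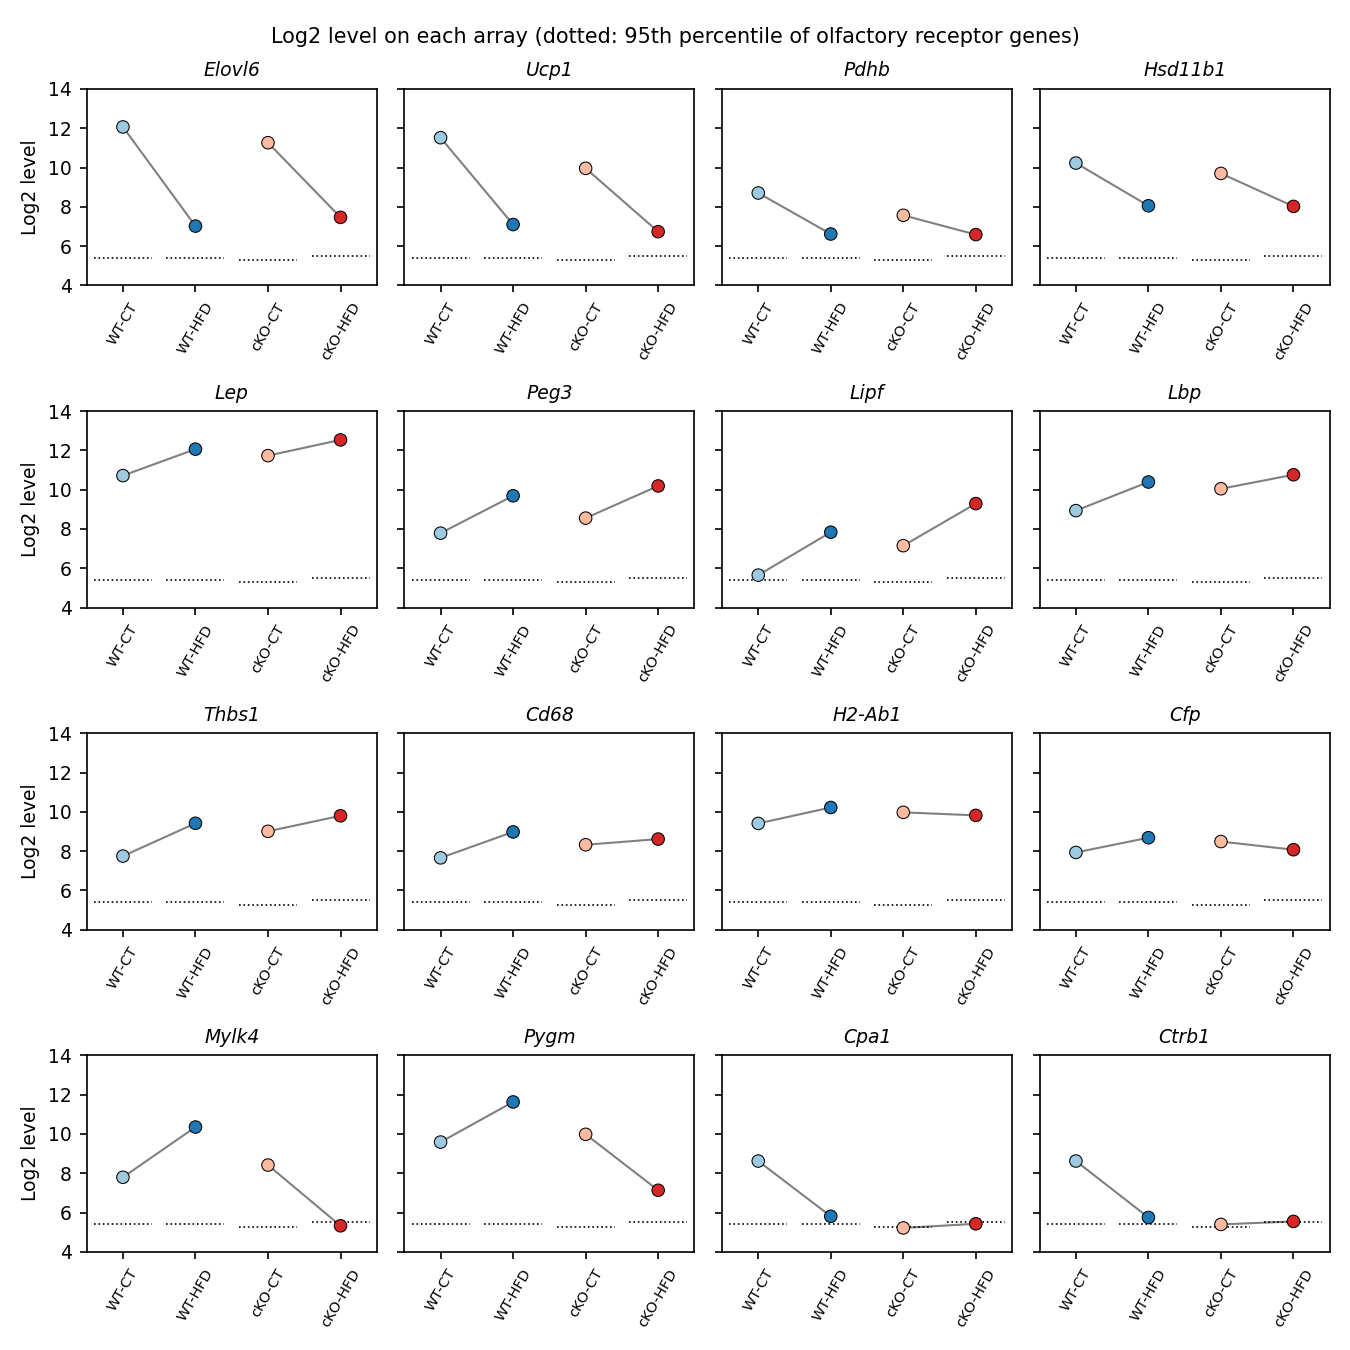
Log2 level (vertical axis) of 16 genes on each of the 4 arrays, named on the horizontal axis, with lines joining the diets of a genotype and dotted marks at the 95th percentile of *Olfr* genes. *Elovl6*, *Ucp1*, *Pdhb* and *Hsd11b1* go down in both genotypes, *Lep*, *Peg3*, *Lipf* and *Lbp* go up in both, and *Mylk4* and *Pygm* go up in WT and down in cKO.

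Of the 20 genes outside the muscle list that rose most, 7 also rose in the cKO pair and 9 fell there. *Slc5a7*, the high-affinity choline transporter gene, stood at 5.18 on WT-CT, below background, at 7.50 on WT-HFD, and at 6.63 and 8.28 on cKO-CT and cKO-HFD. *Lipf*, which encodes gastric lipase, stood at 5.65, 7.84, 7.15 and 9.29. *Sfrp5*, a secreted Wnt antagonist of fat, stood at 7.53, 9.71, 9.22 and 9.83. The HFD array lay above the CT array in each genotype for all 3, and WT-CT was lowest. *Peg3*, an imprinted gene, had 1.90 in WT and 1.64 in cKO, the oxytocin receptor gene *Oxtr* 1.58 and 1.88, *Thbs1*, which encodes thrombospondin 1, 1.67 and 0.79, and the actin-binding gene *Synpo2* 1.69 and 0.62. The amino acid transporter gene *Slc7a8* (1.68) and the interferon-induced gene *Ifi27l2a* (1.54) rose in WT and had 0.40 and 0.57 in cKO. The 250 bases before the start of the first 2 genes are given, marked as above. These had the largest rises outside the muscle list among genes whose higher array reached 7, a limit that *Rnase2a* missed. They are *Slc5a7* at chr17:54299035-54299284, minus strand, and *Lipf* at chr19:33960998-33961247, plus strand, of GRCm38.p6 in RefSeq.
Slc5a7: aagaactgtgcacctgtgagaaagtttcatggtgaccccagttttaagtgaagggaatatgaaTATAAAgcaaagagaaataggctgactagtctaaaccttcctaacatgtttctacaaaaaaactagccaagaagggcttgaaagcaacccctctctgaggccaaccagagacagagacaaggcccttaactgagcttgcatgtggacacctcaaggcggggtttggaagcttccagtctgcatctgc
Lipf: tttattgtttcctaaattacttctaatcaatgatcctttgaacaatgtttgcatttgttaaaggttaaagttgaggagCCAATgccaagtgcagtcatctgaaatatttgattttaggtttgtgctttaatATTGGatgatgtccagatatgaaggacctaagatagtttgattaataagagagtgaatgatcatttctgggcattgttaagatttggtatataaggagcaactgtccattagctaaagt
*Slc5a7* held 1 TATAAA match, found in 13% of all promoters of this length, and *Lipf* held 2 CCAAT matches.

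Secreted products of fat moved in both directions. Of 24 adipokine genes 6 rose and 4 fell (25% and 16.7%, against 3.16% and 2.67% of all genes). *Lep*, which signals fat mass, stood at 10.72 on WT-CT and 12.06 on WT-HFD (2.54-fold higher), and at 11.73 and 12.54 on the cKO arrays. *Lbp*, the lipopolysaccharide-binding protein gene, stood at 8.93 and 10.39, and at 10.05 and 10.76. *Agt*, the angiotensinogen gene, fell by 0.93, *Nrg4*, a factor released by brown fat, by 0.91, *Angptl8* by 0.88 and the fatty acid receptor gene *Ffar4* by 0.67. Of 22 imprinted growth genes 3 rose (13.6%) and none fell, all 3 also in the cKO pair. They were *Peg3*, *Mest* (1.48 and 1.08), a marker of adipocyte enlargement that stood at 10.06 on WT-CT and 12.08 on cKO-HFD, and *Zim1* (1.30 and 1.71), a neighbour of *Peg3* that lay below background on WT-CT. Chosen after their values were seen, the autophagy gene *Trp53inp2* (1.31 and 1.03), the phospholipid transfer protein gene *Pltp* (1.30 and 0.76), *Fgf13* (1.28 and 0.94), the receptor gene *Ret* (1.23 and 0.89), the GABA transporter gene *Slc6a13* (1.16 and 1.07), the tubulin gene *Tuba1a* (1.10 and 1.02) and the annexin gene *Anxa2* (0.86 and 0.66) also rose in both pairs. Of 39 Wnt genes *Sfrp5* and the R-spondin receptor gene *Lgr4* (0.76) rose and none fell. These are 5.13% higher and 0% lower, close to the shares of all genes.

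Of the 236 genes of the matrix and vessel lists 47 rose (19.9%, against 3.16% of all genes) and 2 fell. These lists, like the immune and metabolic ones, were chosen with earlier results of these data known. The share of all genes is not matched for level, and 12.3% rose at a mean level of 10 or more. Of those 48 genes 13 were on the muscle list, whose members are not counted among the 236. The cKO median was lower for the matricellular and progenitor lists and higher for the collagens (0.27), differences that were not tested. Yet 1 collagen gene rose in the cKO pair and 7 in the WT pair. Of 37 matricellular and fibre protein genes 17 rose and none fell (median 0.48), while 3 rose and 1 fell in the cKO pair (median 0.07). *Thbs1* stood at 7.75 on WT-CT, 9.42 on WT-HFD, 9.01 on cKO-CT and 9.80 on cKO-HFD. The small proteoglycan gene *Aspn* had 1.24, *Ccn1* 1.18, *Thbs2* 1.06, fibronectin, *Fn1*, 0.98 and the fibulin gene *Fbln2* 0.95. The cKO pair had 0.28, -0.10, -0.30, -0.34 and 0.20 for these 5. *Tnc* (0.86 and 0.67) and *Postn* (0.68 and 0.66), tenascin C and periostin, were the members besides *Thbs1* that rose in both. *Ccn1* stood at 6.83, 8.01, 8.37 and 8.26 in the order WT-CT, WT-HFD, cKO-CT and cKO-HFD, with WT-CT alone low. Of 44 collagen genes 7 rose, 37 were within 1.5-fold and none fell, with a median of 0.01 and 22 genes on each side of 0. That median depended on the level. It was 0.02 for the 41 collagens above background on either WT array, but 0.54 for the brighter ones that averaged 7 or more. The 7 that rose were the type VI genes *Col6a3* (0.96), *Col6a2* (0.73) and *Col6a1* (0.65), the fibrillar genes *Col3a1* (0.63) and *Col1a2* (0.62), and *Col14a1* (0.80) and *Col12a1*. *Mmp12* (1.07), the macrophage elastase gene, *Adamts5* (0.80), *Mmp2* (0.69), *Timp2* (0.66) and *Timp3* (0.60, not past 1.5-fold after cyclic loess) were the 5 of 42 protease and inhibitor genes that rose.

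Of 23 genes of stromal progenitors 7 rose and 1 fell (median 0.47, and -0.09 in the cKO pair). *Pi16*, which marks early progenitors, went from 8.02 to 9.27 in WT and from 8.61 to 7.69 in cKO. *Fap* (1.12), *Mfap5* (0.80), *Dpt* (0.77), *Islr* (0.73), *Sema3c* (0.72) and *Cd34* (0.62) rose, and *F3*, a marker of progenitors that restrain fat formation, fell (-0.71). Of 14 smooth muscle genes *Synpo2*, *Des*, *Acta2* and *Sncg* rose. *Des* is on the skeletal muscle list and fell in the cKO pair (1.44 and -1.41), whereas the smooth muscle actin gene *Acta2* had 1.26 and -0.07. Endothelial genes moved little and mostly upwards, 21 of 23 with a ratio above 0 and a median of 0.28, and the lymphatic gene *Lyve1*, also used by macrophages, alone passed 1.5-fold (0.78). None of 34 cell cycle genes passed 1.5-fold (median 0.07).

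**Figure D4:**
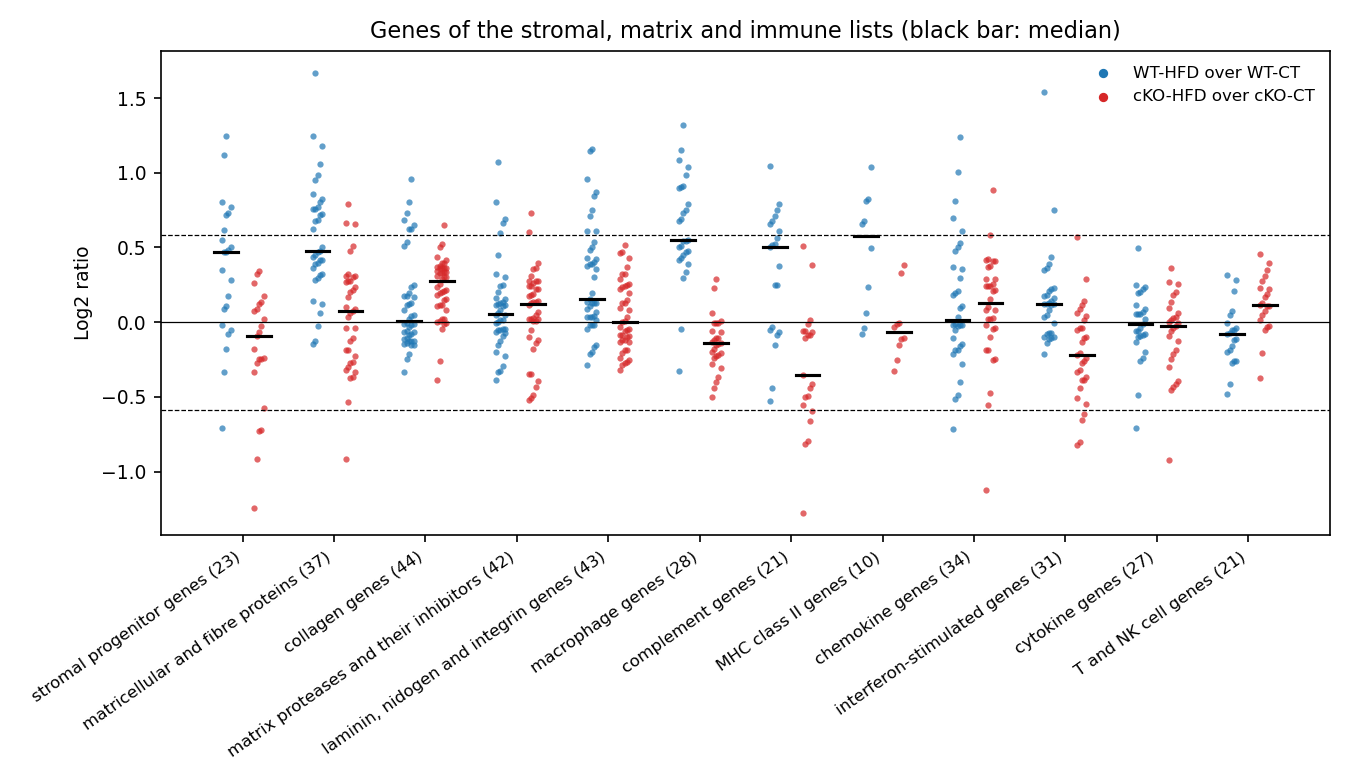
Log2 ratio (vertical axis) of each gene of 12 stromal, matrix and immune lists, WT-HFD over WT-CT in blue and cKO-HFD over cKO-CT in red, with the number of genes in brackets, black bars at the medians and dashed lines at 1.5-fold. The WT medians of the macrophage (0.55), class II (0.58) and complement genes (0.50) lie above the cKO medians (-0.14, -0.07 and -0.35), and the T and NK cell genes lie near 0.

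Of the 345 genes of the immune lists 41 rose (11.9%) and 6 fell, and macrophage, class II and complement genes were among those that rose. Of 28 macrophage genes 13 rose and none fell, and none passed 1.5-fold in the cKO pair. *Cd68*, a lysosomal marker of macrophages, stood at 7.66 on WT-CT, 8.98 on WT-HFD, 8.32 on cKO-CT and 8.61 on cKO-HFD. WT-CT was the lowest of the 4. The lysozyme gene *Lyz1*, a close copy of *Lyz2* (itself at a ratio of 0.91), had 1.15, the signalling adaptor gene *Tyrobp* 1.09, the cathepsin gene *Ctss* 1.04 and *Mrc1*, the mannose receptor gene of resident macrophages, 0.75. Genes of lipid-laden macrophages rose in part, 7 of 31: *Gpnmb* (1.49), *Mmp12*, *Ctss*, the cathepsin K gene *Ctsk* (0.93) and *Trem2* (0.72) among them, while *Plin2* (-0.84) and *Fabp5* (-0.81), which fat cells also express, fell. Of 10 class II genes 5 rose (median 0.58), with *H2-Ab1* from 9.41 to 10.22 and the invariant chain gene *Cd74* from 10.02 to 10.84. In the cKO pair these had -0.15 and -0.11, from 9.97 and 10.76 on cKO-CT. The summed linear signal of the class II list was 3771 on WT-CT, 6255 on WT-HFD, 5596 on cKO-CT and 5230 on cKO-HFD.

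Of 21 complement genes 7 rose and none fell, against 5 that fell and none that rose in the cKO pair. Besides the C1q genes *C1qc* (0.79) and *C1qb* (0.68), which macrophages make, these were the receptor genes *C5ar1* (1.04) and *C3ar1* (0.71), properdin, *Cfp* (0.75), factor B, *Cfb* (0.65), and the C1 inhibitor gene *Serping1* (0.61, not past 1.5-fold after cyclic loess). The summed linear signal of the complement list was 9863 on WT-CT, 13219 on WT-HFD, 12956 on cKO-CT and 11068 on cKO-HFD. Of 34 chemokine genes 5 rose (14.7%, against 3.16% of all genes). The B cell attractant gene *Cxcl13* went from 6.39 to 7.63 in WT and from 6.86 to 5.74 in cKO, the eosinophil attractant gene *Ccl11* had 1.01, *Ccl6* 0.81, *Ccl2* 0.70 and *Ccl9* 0.61, the last not past 1.5-fold after cyclic loess. *Cxcl2* fell, below background on both arrays. None of 27 cytokine genes rose, and *Csf3*, below background, fell. None of 21 T and NK cell genes and none of 20 mast cell and granulocyte genes passed 1.5-fold, although 5 and 4 of these lay above background on either WT array. Interferon-stimulated genes had a median of 0.12, and *Ifi27l2a* and *Oas3* (0.75, below background on both arrays) were the 2 of 31 that rose. That is 6.45%, against 3.16% of all genes.

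Regulatory groups held few or mixed calls. Of 43 nuclear receptor genes *Ppara* and *Nr0b1* fell, the latter below background, and *Pparg*, the master regulator of fat cells, had -0.37. Of 17 clock genes *Bhlhe40* fell (-0.96, and -1.56 in cKO). Of 25 genes of insulin signalling *Igfbp3* rose (0.62) and *Slc2a4* fell. Of 21 endocannabinoid and N-acylethanolamine genes, the class to which *Napepld* belongs, the diacylglycerol lipase gene *Daglb* (0.63) and *Gpr55* (below background) rose and *Ppara*, the lipase gene *Abhd6* (-0.75) and the phosphodiesterase gene *Gde1* (-0.73) fell. These are 9.52% higher and 14.3% lower, against 3.16% and 2.67% of all genes, and the list's median of 0.16 became -0.12 over the 12 members above background. Of 29 eicosanoid genes *Alox5ap* (0.84), which feeds leukotriene synthesis, and *Hpgd* (0.59, not after cyclic loess) rose and the prostaglandin E synthase gene *Ptges* fell (-1.21). Of 27 ceramide genes *Cerk* rose (0.60) and *Sgpl1*, which degrades sphingosine phosphate, fell (-0.75). Of 300 microRNA genes 3 rose and 4 fell, and of 347 zinc finger genes 5 rose and 2 fell. The shares higher and lower were 3.7% and 3.7% for the ceramide list and 4% and 4% for insulin signalling, close to those of all genes. They were 1% and 1.33% for microRNA genes and 1.44% and 0.58% for zinc finger genes, below those of all genes. Nuclear receptor genes had 0% and 4.65%, clock genes 0% and 5.88%, and eicosanoid genes 6.9% and 3.45%.

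**Figure D5:**
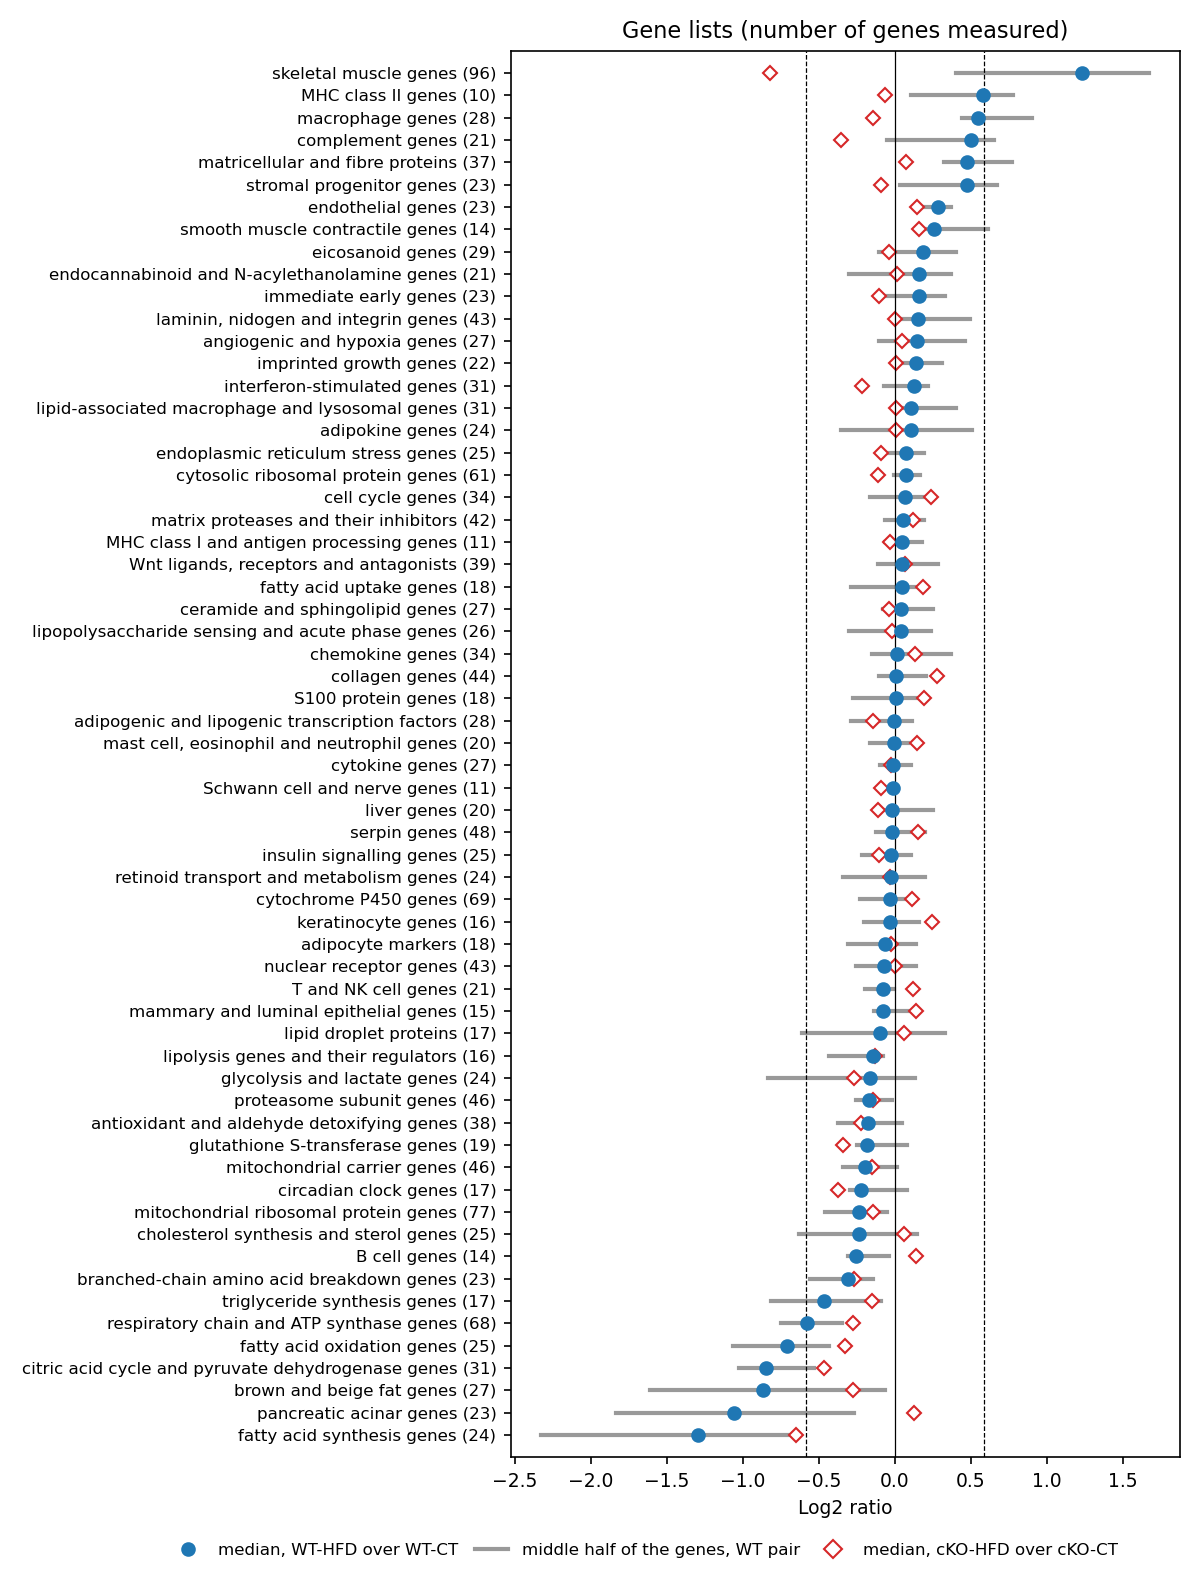
Median log2 ratio of most of the 74 gene lists (horizontal axis), with the number of genes measured in brackets and dashed lines at 1.5-fold. Filled circles are WT-HFD over WT-CT, with grey bars over the middle part of the genes (25th to 75th percentile), and open diamonds are cKO-HFD over cKO-CT. Left out are the erythrocyte list and families such as the olfactory receptor, microRNA, keratin and zinc finger genes. The lists are ordered from skeletal muscle (1.23) to fatty acid synthesis (-1.29), and muscle and acinar genes have medians of opposite sign in the cKO pair (-0.82 and 0.13).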

How the data were processed

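RNA of subcutaneous adipose tissue was measured on 4 arrays, 1 pooled array per group, and the samples were grouped by their labels. The table deposited by the authors holds log2 signals, 1 per probe set and array, from RMA (background correction, quantile normalization and a summary over probes). The submitters' processing notes name Affymetrix Expression Console, and the methods name the RMA-Sketch procedure. Detection P values went unused, and background was judged from *Olfr* genes instead. Quantile normalization gives arrays one distribution, so a shift of all genes is not seen, and RMA compresses ratios near background.

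Of 35556 probe sets, 21789 had 1 gene name in the platform annotation, which can be old, 1621 had several and 12146 had none. Probe sets naming the same single gene were averaged. Genes were named by a rule or outside it. Where the higher array reached 7, the rule took the 20 largest ratios each way outside the muscle list and the 6 each way within it. It also took up to 4 members of each of 74 lists under that limit, and members of counts of 5 or fewer. *Napepld* and 6 genes with opposite calls were added. Further genes were picked by hand outside that rule, among them *Ckm*, *Myh4*, *Scd1*, *Lipe*, *Prdm16*, *Fn1* and the slow fibre genes *Myh7* and *Tnnc1*. Members and lists were chosen with earlier results of these data known. Promoters came from a RefSeq table, cut to 250 bases. The alternatives were another probe set rule, probe sets counted singly, background and level filters, 2-fold, median centring, cyclic loess and counts without lists. A list median was called moved by more than a tolerance taken from the *Olfr* spread. Steps were tested on simulated data with planted changes larger than 1.5-fold, which checks the code and not the error of these arrays. Python 3.11.15, numpy 2.4.6, pandas 2.3.3, matplotlib 3.10.9, R 4.3.3 and limma 3.58.1 were used.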

Additional observations from a re-analysis of the deposited data

Results flagged for a closer look

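The genes below passed 1.5-fold in opposite directions in the WT and cKO pairs, and the values are the WT diet ratio minus the cKO diet ratio on the log2 scale. With 1 array per group the difference between the genotypes was not tested. The median of the skeletal muscle genes differed by 2.05. Within that list *Mylk4* differed by 5.65, *Pygm* by 4.89, *Xirp2* by 4.03, *Ryr1* by 4.01, *Ampd1* and *Klhl31* both by 3.92, *Des* by 2.85 and *Rpl3l* by 1.77. On cKO-HFD *Mylk4*, *Xirp2*, *Klhl31*, *Ampd1* and *Rpl3l* were under the level of 95% of *Olfr* genes, and the sizes of these 5 differences cannot be read.

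Outside that list *Hjv* differed by 3.47, *Tpm1* by 3.31, the muscle adenylosuccinate synthase gene *Adssl1* by 3.15, *Tpm2* by 3.04, *Mypn* by 2.98 and *Ak1* by 2.85. *BC023105* differed by 2.75, *Pfkm* by 2.66, *A930016O22Rik* by 2.64, *Lrrc2* by 2.38 and *Fitm1* by 2.37, and of these *BC023105*, *Lrrc2*, *Fitm1* and *Mypn* were under that level on cKO-HFD as well. The chemokine gene *Cxcl13* differed by 2.36, the progenitor gene *Pi16* by 2.16 and the repressor gene *Bcl6* by 1.70. Near background, the serpin gene *Serpina1c* differed by 3.75 and *Nr0b1* by -1.31, the latter falling in WT and rising in cKO.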

How the results depend on the processing

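The number of genes higher in WT-HFD over WT-CT (631) and lower (532) stayed within 1.5 times under another probe set rule, probe sets counted singly, the *Olfr* background, centring, cyclic loess, and without the muscle list. The same held without the muscle and acinar lists and without genes of opposite call in the cKO pair, which were added after seeing the data. Among genes whose mean log2 level reached 7 the counts were 329 and 281, and at 2-fold 163 and 129. Cyclic loess gave 614 and 537, of which 594 and 503 were shared. It ended 12 of 230 calls of genes named by the rule (*Ccl9*, *Cd79a*, *Hpgd*, *Igkv5-43*, *Itga7*, *Lox*, *Mir101b*, *Mir680-2*, *Serping1*, *Timp3*, *Zbtb16* and *Zfp488*). Centring ended that of *Srebf1*.

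Of 74 list medians 37 moved under 1 or more settings, 60 values in all, of which 43 kept their sign and lay farther from 0, 5 kept it and lay nearer 0, and 12, from 8 lists, changed sign. With shifts inside the tolerance counted too, 16 lists had a median of opposite sign under some setting. The muscle median (1.23) became 1.27 with the probe set of highest level, 1.35 above the *Olfr* background and 1.53 at level 7, and the acinar median (-1.06) -1.61 and -2.81 under the latter pair. The brown and beige median (-0.87) became -0.99 and -1.18, the matricellular median (0.48) 0.56 and 0.69, the macrophage median (0.55) 0.71 at level 7 and the respiratory chain median (-0.58) -0.62 after loess. The filters take dim genes out by construction. No median changed sign in those lists. Above the *Olfr* background and at level 7 the endocannabinoid median (0.16) became -0.12 and -0.30, the B cell median (-0.25) 0.08 and 0.16 and the serpin median (-0.02) 0.40 and 0.61. The B cell values rest on the 2 of 14 members above background, and at level 7 on *Cd37* alone. At level 7 the eicosanoid median (0.19) became -0.06, the sterol median (-0.24) -0.07 and the liver median (-0.02) -0.99, which rests on *Alb* and *Cyp2e1* alone. The other sign changes among the 12 were of medians within 0.1 of 0. With 1 array a group no array could be left out. No paired analysis was possible because each group was 1 array and shared no more than 1 number.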
